A study of Rattus norvegicus with 3 samples.

Results

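The genes described here make or supply the transmitters of the autonomic and sensory nerves that supply salivary glands. They are 5 neuropeptide genes (Vip, Npy, Calca, Gal and Tac1), 3 enzymes of catecholamine synthesis (Th, Ddc and Dbh), the acetylcholine-synthesizing enzyme Chat and the neuronal nitric oxide synthase Nos1. They were taken by gene symbol from the probes of a rat expression array, and all 10 were found, on 12 probes, among 15027 named genes on 41012 probes. Calca had 3 probes and the other genes 1 each. The 3 arrays held RNA of normal parotid, submandibular and sublingual glands from male Wistar rats aged 10 weeks, with no treatment or transgene named, and each gland was on 1 array. The study's description speaks of 3 rats, and the sources used here do not say whether each array held 1 animal or a pool. The array labelled submandibular is called submandibular-labelled here, because its markers leave in doubt which gland it held, as given with the gland markers below.

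Secretion of saliva is driven by parasympathetic nerves, which release acetylcholine together with vasoactive intestinal peptide and, in part of the fibres, nitric oxide. Sympathetic nerves release noradrenaline together with neuropeptide Y, and sensory fibres carry calcitonin gene-related peptide and substance P. The cell bodies of the sympathetic and sensory neurons lie outside the glands, so that their messenger RNA is mostly not in the gland. Parasympathetic ganglion cells lie close to or inside some salivary glands, but not all. Noradrenaline is made from tyrosine by tyrosine hydroxylase, aromatic L-amino acid decarboxylase and dopamine beta-hydroxylase in turn. The decarboxylase, encoded by Ddc, also makes serotonin and trace amines and is found in many cells that are not neurons.

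Ddc, Npy and Vip were the genes at least 4-fold apart in any pair of glands, and their promoters are shown for that reason. Each is the RefSeq window from 250 bases before to 50 bases after the annotated gene start in the rat assembly GRCr8, written 5′ to 3′ on the strand of the gene. A promoter was listed for 10 of the 10 genes. The windows lie at chr14:90682734-90683033 on the minus strand for Ddc, at chr4:80211861-80212160 on the plus strand for Npy and at chr1:44470230-44470529 on the plus strand for Vip. Capitals mark 2 motifs on either strand. One is the short element TGACG, part of the cAMP response element through which that second messenger acts on transcription; the full element, TGACGTCA, would be marked as well. The other is the TATA box, searched as TATAAA, where general transcription factors bind.
Ddc: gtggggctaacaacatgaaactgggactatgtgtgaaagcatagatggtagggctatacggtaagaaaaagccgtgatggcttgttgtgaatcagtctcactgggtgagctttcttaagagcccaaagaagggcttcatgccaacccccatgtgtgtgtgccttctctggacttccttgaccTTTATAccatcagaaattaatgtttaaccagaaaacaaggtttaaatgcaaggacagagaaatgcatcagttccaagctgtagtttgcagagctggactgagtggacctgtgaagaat
Npy: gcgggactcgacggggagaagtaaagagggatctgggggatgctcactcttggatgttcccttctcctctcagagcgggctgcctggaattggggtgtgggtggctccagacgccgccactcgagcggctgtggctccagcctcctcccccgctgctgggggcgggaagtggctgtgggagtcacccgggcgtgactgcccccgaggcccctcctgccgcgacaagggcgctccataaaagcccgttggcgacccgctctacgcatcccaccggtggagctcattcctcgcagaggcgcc
Vip: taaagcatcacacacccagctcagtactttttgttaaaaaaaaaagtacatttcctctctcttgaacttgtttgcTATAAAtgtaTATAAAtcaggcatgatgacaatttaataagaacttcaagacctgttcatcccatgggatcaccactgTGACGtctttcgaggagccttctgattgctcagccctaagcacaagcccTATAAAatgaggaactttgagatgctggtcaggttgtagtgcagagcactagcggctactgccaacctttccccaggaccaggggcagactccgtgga
The Vip window held 3 TATA box matches, at positions -175, -165 and -48 when the start base counts as 0, and 1 match to the short element at -97. The Ddc window held 1 TATA box match, on the reverse strand at -68, and none to the short element. The Npy window held neither. Among 27457 RefSeq promoters of this length, 14.3% held a TATA box, 22.0% the short element and 1.91% the full element on either strand. The full element was in the windows of Th, at -69, and Nos1, at -9, where it also counts as 2 overlapping short elements. An E-box (CANNTG), present in 71.6% of all promoters, was found once in the Ddc window and not in those of Npy and Vip. These matches describe letters in these windows and were not tested for binding of any factor.

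Signals are given in the scanner's arbitrary units after its own processing and before any scaling between arrays. A level is the log2 signal relative to the 75th percentile of all probes on the same array. A probe counts as well above background when 50% or more of its spots carry the scanner's flag of that name. Where a probe was not well above background on 1 side of a comparison, its fold is written "at least". It was then taken against the dim probe's own level or the lowest level of any probe well above background on that array, whichever was higher. With 1 array per gland there is no replicate of a gland and no test across arrays, and no difference below can be set against the spread between animals. For 6 of the 10 genes, 10 repeat spots of 1 probe show the spread within an array. For Vip, Ddc, Dbh and Chat, and for 2 of the 3 Calca probes, there was a single spot, and the error given is the scanner's own estimate on the log2 scale. In bulk tissue, fewer cells of a type and less RNA per cell cannot be told apart.

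In the parotid gland 5 of the 10 genes were well above background (Npy, Calca, Th, Ddc and Dbh), in the submandibular-labelled gland 4 (Npy, Calca, Th and Ddc) and in the sublingual gland 5 (Npy, Calca, Th, Ddc and Vip). Over all 15027 genes the shares were 64.6%, 62.9% and 63.9%. Gal, Tac1, Chat and Nos1 were well above background on none of the 3 arrays. A difference could be given for 5 of the 10 with submandibular-labelled set against parotid, for 6 between sublingual and parotid and for 5 between sublingual and submandibular-labelled.

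**Figure D1:**
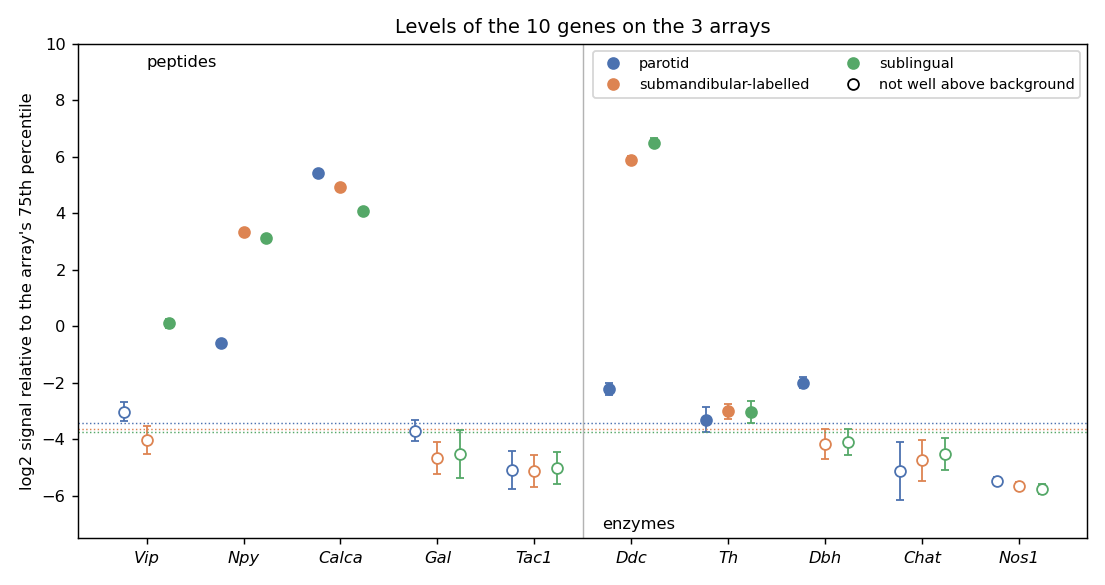
Log2 level of each of the 10 genes (vertical axis, relative to the array's 75th percentile) in the parotid, submandibular-labelled and sublingual glands; open points are not well above background, dotted lines are the lowest level of any probe well above background on each array, and bars are the SD of repeat spots or, for single spots, the scanner's error. Ddc and Npy are higher in both other glands than in parotid, Vip is well above background in the sublingual gland, and Dbh in the parotid gland.

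Between the submandibular-labelled and parotid arrays, Ddc and Npy were at least 4-fold higher on the former and none of the 5 genes compared was 4-fold lower. Of all 10173 genes compared, 5.74% were 4-fold apart, 2.94% higher and 2.8% lower. Between sublingual and parotid, Ddc, Npy and Vip were at least 4-fold higher in the sublingual gland and none of 6 was 4-fold lower, beside 5.95% of 10181 genes that were 4-fold apart, 3.1% higher and 2.85% lower. Between sublingual and submandibular-labelled, Vip alone of 5 genes was 4-fold apart, and it was higher in the sublingual gland, as were 0.123% of 9782 genes, while 0.0716% were lower there. The median difference of the genes compared was 0.29, 1.69 and -0.03 on the log2 scale in these 3 comparisons, beside 0.10, 0.06 and -0.05 over all genes. Vip entered its comparisons only through the sublingual array, where it was high, and Dbh only through the parotid array. The value of 1.69 lies between Th (0.27) and Vip (3.12) and so depends on Vip being compared. These medians of 5 or 6 genes are therefore not read as a trait of the set. The 2 comparisons with the parotid gland share that array, so their values are given side by side and not as support for each other. Centring the arrays on their medians moved the median of the 8868 genes well above background on all arrays by 0.31 and 0.24 in these 2 comparisons. It raised the share of 4-fold calls that were higher outside parotid from 51.2% to 67.5% and from 52.1% to 65.1%, and left Ddc, Npy and Vip at least 4-fold higher.

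**Figure D2:**
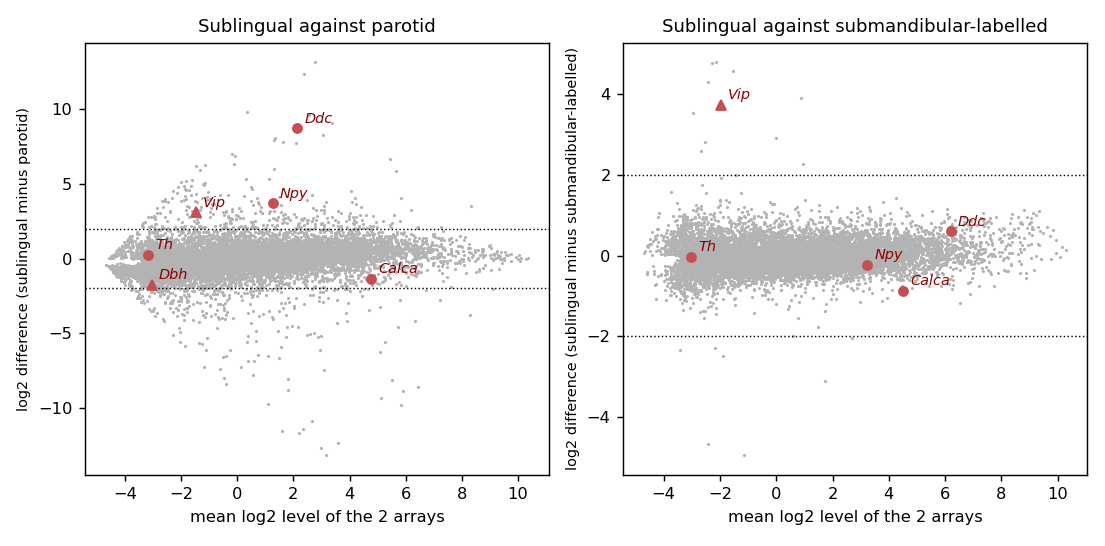
Log2 difference against mean log2 level for all genes compared (grey), with sublingual minus parotid on the left and sublingual minus submandibular-labelled on the right; named red points are the transmitter genes, triangles are lower bounds, and dotted lines mark 4-fold. Ddc, Npy and Vip lie above the upper line on the left and Vip alone on the right.

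Among the peptides, Npy was measured with the most repeat spots above background. It encodes neuropeptide Y, a vasoconstrictor peptide of sympathetic neurons that some parasympathetic neurons also make. Its probe (chr4:78045125-78045184 in rn4, plus strand) gave signals from 110 to 133 with a median of 124.5 over 10 spots in the parotid gland. In the submandibular-labelled gland the 10 spots lay between 2110 and 2530 with a median of 2320, and in the sublingual gland between 1870 and 2300 with a median of 2155. The parotid spots thus did not overlap those of either other array, whereas the spots of the other 2 arrays overlapped each other. The levels were -0.60 ± 0.08, 3.35 ± 0.09 and 3.13 ± 0.09 in the parotid, submandibular-labelled and sublingual glands (SD over 10 spots of 1 array each). Npy was 15.4-fold higher in the submandibular-labelled gland and 13.2-fold higher in the sublingual gland than in the parotid gland, a log2 difference of 3.94 and 3.72. Between sublingual and submandibular-labelled the difference was -0.22, with a combined spot SD (root of the summed squares) of 0.12. Npy was thus 1 of the 299 genes at least 4-fold higher in the submandibular-labelled gland and 1 of the 316 in the sublingual gland.

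Vip encodes vasoactive intestinal peptide, a vasodilator peptide of parasympathetic neurons. Its single spot (chr1:36369392-36369451 in rn4, plus strand) gave a signal of 22.9 in the parotid gland, 13.9 in the submandibular-labelled gland and 261 in the sublingual gland. Only the sublingual value was well above background. The levels were -3.02, -4.04 and 0.10, with a scanner error of 0.34, 0.49 and 0.15. Vip was higher in the sublingual gland by at least 8.69-fold than in the parotid gland and by at least 13.4-fold than in the submandibular-labelled gland. By the second value it was 1 of the 12 genes that were at least 4-fold higher in the sublingual gland than in the submandibular-labelled gland. With a different background correction (normexp, which adds an offset of 50 to every signal) the log2 differences were 1.25 and 1.72 in place of 3.12 and 3.74, both under 4-fold and both still higher in the sublingual gland.

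The Vip value rests on 1 spot, so that spot was looked at more closely. The SD of its pixels in the sublingual gland was 20.0% of their mean, beside a median of 16.1% and a 95th percentile of 20.3% over 2315 spots of like signal (within 25%) on that array, and the spot carried no outlier flag. The spots next to it in the same row had signals of 21.8 and 8.72 in the sublingual gland and of 7.45 and 7.08 in the submandibular-labelled gland, so they were low on both. A probe for an expressed sequence on the opposite strand (chr1:36369401-36369460), overlapping the Vip probe, was not well above background on any array, with signals of 5.66, 5.54 and 7.52. No second Vip probe was on the array.

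Calca, which encodes calcitonin in thyroid C cells and calcitonin gene-related peptide in sensory neurons, gave unlike readings with its 3 probes. The probe at chr1:172688290-172688349 (rn4, minus strand) had 10 spots, of which 9, 8 and 9 were free of outlier flags in the parotid, submandibular-labelled and sublingual glands. They lay between 7410 and 8410 with a median of 8150 in parotid, between 6420 and 7410 with a median of 7060 in submandibular-labelled and between 3880 and 4400 with a median of 4120 in sublingual. The spots of the sublingual gland did not overlap those of the other 2. The levels were 5.44 ± 0.06, 4.95 ± 0.06 and 4.08 ± 0.07 (SD over those spots). The sublingual gland was 2.56-fold below parotid and 1.82-fold below submandibular-labelled, and the submandibular-labelled gland was 1.40-fold below parotid, all under 4-fold.

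The other 2 Calca probes, at chr1:172689248-172689307 and chr1:172686316-172686443 on the same strand, lay on either side of it and were well above background on no array. Their signals ran from 3.56 to 5.71 over the 3 arrays. The files tie the first of them to the same transcript record as the probe with high signal. The 3 probes therefore do not give Calca a common reading, and what the probe with high signal measured was not tested. Of 3413 genes with several probes, 504 had 1 probe well above background on all 3 arrays while their other probes were on none. Adcyap1, which encodes PACAP, a neuropeptide related to vasoactive intestinal peptide, and Ache, acetylcholinesterase, were among such genes. Their probes with signal had levels of 4.10, 3.52 and 2.64 and of 3.95, 3.28 and 2.48 in the parotid, submandibular-labelled and sublingual glands, and in each of the 2 genes 2 other probes were not well above background on any array.

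**Figure D3:**
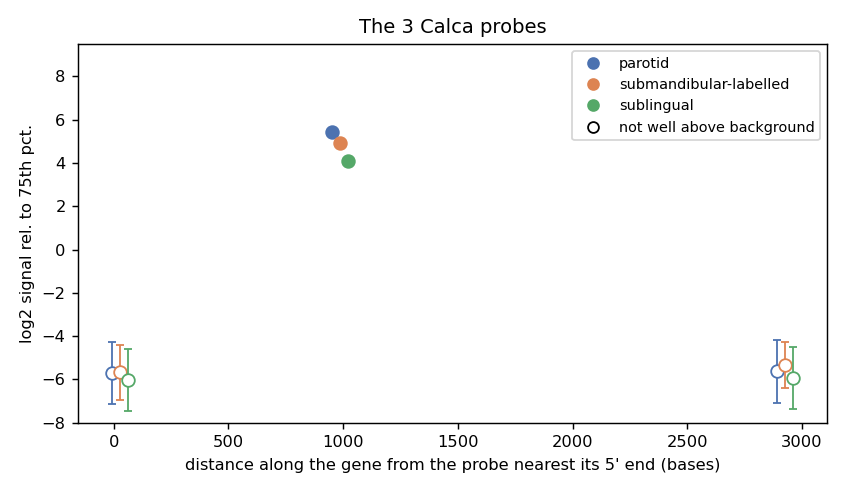
Log2 level of the 3 Calca probes on the 3 arrays (vertical axis), placed by distance along the gene from the probe nearest its 5′ end (horizontal axis, bases; points of the arrays are shifted sideways for clarity). The middle probe reads 5.44, 4.95 and 4.08, and both outer probes are open points, not well above background; bars are the SD of repeat spots or the scanner's error of single spots.

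Gal and Tac1 were not well above background in any gland. Gal, which encodes galanin, a peptide of sensory, enteric and some parasympathetic neurons, was read at chr1:205936430-205936489 (rn4, minus strand). Its 10 spots had a median signal of 15.0 in parotid (range 7.72 to 18.3), 9.55 in submandibular-labelled (5.03 to 13.5) and 12.1 in sublingual (4.06 to 20.6). The ranges overlapped, and 1, 0 and 1 of the 10 spots were well above background, while 10, 9 and 9 passed the scanner's weaker flag of a positive and significant signal. Tac1, the precursor of substance P and neurokinin A, was read at chr4:32657311-32657369 (rn4, plus strand). Its 10 spots had medians of 4.80, 6.19 and 6.80 with highest spots of 16.7, 11.1 and 12.2, and 0 of the 10 spots were well above background on any array, while 5, 5 and 8 passed the weaker flag. Neither gene gives a difference between the glands at this signal.

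**Figure D4:**
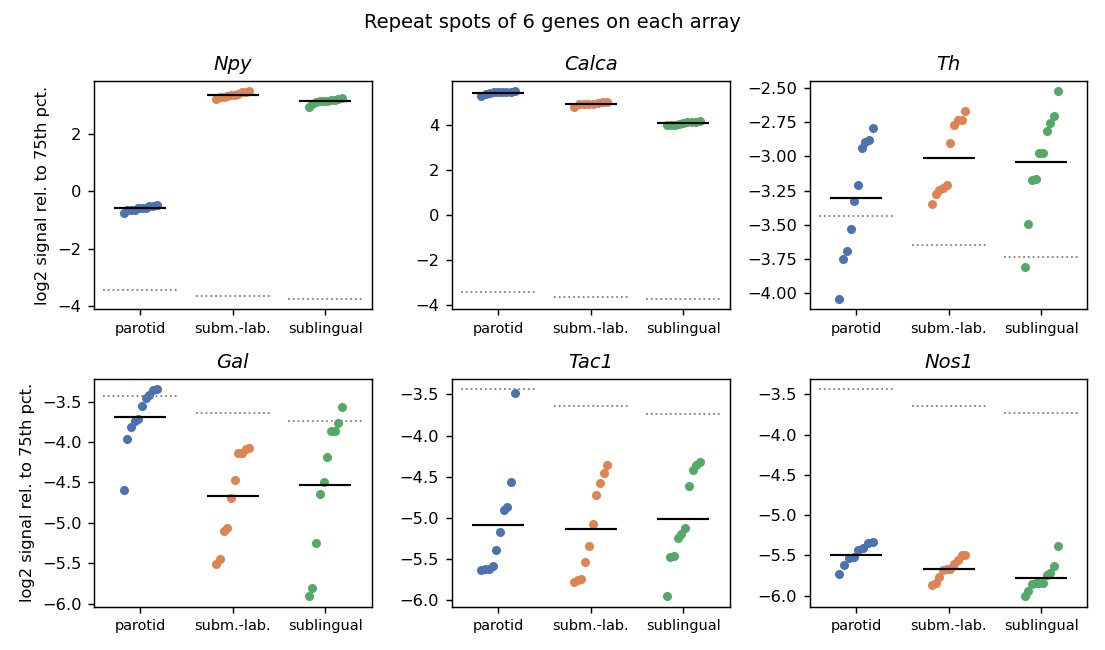
Log2 level of every unflagged repeat spot (points) and their mean (bars) for 6 genes on the 3 arrays; dotted lines are the lowest level of any probe well above background, and the vertical scale differs between panels. Npy spots of the parotid gland lie apart from those of the other 2, Calca spots of the sublingual gland lie lowest, and the spots of Th, Gal and Tac1 overlap between all 3 arrays.

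Ddc had the largest differences of the 10 genes. Its single spot (chr14:92698673-92698732 in rn4, minus strand) had a signal of 39.6 in the parotid gland, 13600 in the submandibular-labelled gland and 22200 in the sublingual gland. All 3 values were well above background and unsaturated. The levels were -2.23, 5.90 and 6.51, with scanner errors of 0.22, 0.14 and 0.14. Ddc was 280-fold higher in the submandibular-labelled gland and 427-fold higher in the sublingual gland than in the parotid gland, log2 differences of 8.13 and 8.74. Between sublingual and submandibular-labelled the ratio was 1.53, a log2 difference of 0.61 beside a combined scanner error of 0.20. The pixels of the spot had an SD of 19.7% and 24.4% of their mean on these 2 arrays, the latter above the 95th percentile of 22.0% among 299 spots of like signal, without an outlier flag.

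Probes next to the Ddc probe on the chromosome did not have such signals. A probe for an expressed sequence on the opposite strand, 122 bases away, had 8.27, 23.4 and 31.3, and Fignl1, a neighbouring gene on the same strand, had 4.49, 22.6 and 25.3. Both were well above background in the sublingual gland only. The direction of these 2 weak readings was the same as that of Ddc, and their relation to it was not tested.

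Th and Dbh, the enzymes before and after Ddc in noradrenaline synthesis, did not share its pattern. Th, tyrosine hydroxylase, the rate-limiting enzyme of the pathway, was read at chr1:203165487-203165546 (rn4, minus strand). Its 10 spots had a median signal of 19.3 in parotid (range 11.3 to 26.8), 27.6 in submandibular-labelled (22.4 to 35.9) and 31.0 in sublingual (17.4 to 42.4). The spots overlapped between all 3 arrays, and 5, 9 and 9 of the 10 were well above background. The levels were -3.31 ± 0.43, -3.01 ± 0.27 and -3.04 ± 0.39 (SD over 10 spots). The differences from parotid, 0.29 and 0.27, were smaller than the combined spot SDs of 0.51 and 0.58, and they turned to -0.13 and -0.19 with the normexp correction.

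Dbh, dopamine beta-hydroxylase, which makes noradrenaline from dopamine, was read by a single spot at chr3:6068194-6068253 (rn4, plus strand). Its signal was 46.5 in the parotid gland, well above background, and 12.6 and 14.3 in the submandibular-labelled and sublingual glands, not well above it. Dbh was therefore higher by at least 3.13-fold and 3.33-fold in the parotid gland, both under 4-fold. With the measured values of the dim spots in place of the bound, the log2 differences were -2.18 and -2.09, both past 4-fold. With the normexp correction they were -0.83 and -0.74, in the same direction and smaller. Of the 3 enzymes, Ddc was higher outside the parotid gland and Dbh was well above background in the parotid gland only.

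Chat, choline acetyltransferase, the enzyme that makes acetylcholine, was read by a single spot at chr16:7952409-7952468 (rn4, minus strand). Its signals of 5.29, 8.45 and 10.6 were not well above background. Slc18a3, the vesicular acetylcholine transporter, whose gene lies within the Chat locus, had signals of 6.95, 7.90 and 10.8 and was likewise not well above background. Nos1 was read at chr12:39810923-39810982 (rn4, minus strand), with medians of 4.19, 4.48 and 4.25 and a highest spot of 4.60, 5.06 and 5.84. None of its spots was well above background, and in 8 of 8, 10 of 10 and 7 of 10 unflagged spots the scanner had put a surrogate value in place of the measured one. By the scanner's weaker flag (positive and significant), the Chat spot passed on all 3 arrays, and 0, 0 and 3 of the Nos1 spots did. A signal this low does not show that either gene is absent from the glands.

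For each gene that was 4-fold apart, the 3 named genes nearest to it in pattern were found as those with the smallest distance between centred log2 levels over the 3 arrays, among genes well above background on the same arrays. With 3 points each, such a distance describes these arrays and nothing further. Nearest to Npy were Sectm1b (distance 0.06), Cfap45 (0.12) and Dlk1 (0.13), and 31 of 8867 genes lay within 0.5. Nearest to Ddc were Bpifb2 (0.54), Kntc1 (0.57) and Bcas1 (0.63), with none of 8867 within 0.5. Bpifb2 is also on the list of mucous gland products read below. For Vip, 136 other genes were well above background in the sublingual gland alone, and Cacna2d4 (0.69), Or2aj4 (1.06) and Or4a66b (1.07) were nearest.

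The other neuropeptide genes were read from a list of 22, of which 20 had a probe. In the parotid, submandibular-labelled and sublingual glands 9, 8 and 8 were well above background, and 10 were on none. Between submandibular-labelled and parotid 0 of 10 compared were 4-fold higher and 2 were 4-fold lower, and between sublingual and parotid 1 was higher and 2 were lower. The median differences were -0.19 and -0.57. Penk, the precursor of the enkephalins, had levels of -0.15, -3.67 and -3.46 and was higher by at least 11.3-fold and 9.93-fold in the parotid gland. Tac4, which encodes the substance P-like hemokinin, had levels of 0.34, -2.20 and -2.59 and was 5.83-fold and 7.66-fold higher in the parotid gland. Nmu, neuromedin U, was not well above background in parotid and had levels of -1.19 and -0.76 in the others, which made the ratio at least 3.36 and 4.54. The parotid gland thus had the higher level of Penk and Tac4, and Nmu was higher outside it. A second Penk probe was not well above background in any gland.

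Peptide precursors are cut and amidated in dense-core vesicles. Of 11 genes of that machinery, 7, 5 and 6 were well above background. Scg5, the chaperone 7B2 of a prohormone convertase, had levels of 0.60, -2.08 and -1.65 and was 6.41-fold and 4.76-fold higher in the parotid gland. It was the only one of the 11 that was 4-fold apart in any pair, and its second probe had levels of -1.38, -3.24 (not well above background) and -2.56, a smaller difference. Pam, the amidating enzyme that completes Vip, Npy and calcitonin gene-related peptide among others, had levels of 4.77, 6.53 and 6.23, which put it 3.40-fold and 2.76-fold above parotid. Chga, the vesicle protein chromogranin A, was 2.63-fold higher in the sublingual gland than in the submandibular-labelled gland.

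None of the 15 receptor genes for these peptides was 4-fold apart in any pair, and 8 were well above background on none. Tacr1, the substance P receptor, had levels of 1.40, 1.96 and 1.56, and Ramp1, the partner protein of the calcitonin gene-related peptide receptor, 1.43, 0.30 and 0.78. Vipr1, a receptor for vasoactive intestinal peptide, was not well above background in parotid and had levels of -1.57 and -1.93 in the others, which made the ratio at least 3.64 and 2.83. Calcrl, the calcitonin gene-related peptide receptor itself, was not well above background on any array. Npy1r, a receptor for neuropeptide Y, was well above background in parotid only, with a level of -3.03.

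The other catecholamine genes read here showed no 4-fold difference in any pair. Tyrosine hydroxylase needs tetrahydrobiopterin, and of 7 genes for that cofactor 6 were well above background on each array. Gchfr, which regulates the first enzyme of cofactor synthesis, had levels of 3.89, 4.25 and 4.41, Qdpr, which recycles the cofactor, 4.19, 3.63 and 3.86, and Pts, a synthesis enzyme, 1.27, 2.06 and 2.46. Among other genes for synthesis of monoamines, Tph1 and Tph2, which make the serotonin precursor that Ddc decarboxylates, and Hdc, which makes histamine, were well above background on none. Of 8 transporters, 3, 2 and 3 were well above background. Slc22a3, an organic cation transporter that takes up monoamines outside nerves, had levels of 1.31, 1.72 and 1.07, whereas Slc6a2, the noradrenaline transporter, and Slc18a2, the vesicular monoamine transporter of neurons, were not well above background. Of 6 genes for breakdown, 6, 5 and 5 were well above background. Aldh2, aldehyde dehydrogenase, and Maoa, a monoamine oxidase, were less than 1.5-fold from parotid on both arrays.

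Among 6 cholinergic genes besides Chat, Bche, which encodes butyrylcholinesterase, had levels of -0.27, -4.21 and -5.72 and was higher by at least 10.4-fold and 11.0-fold in the parotid gland. Slc5a7, the choline transporter of cholinergic nerve endings, was not well above background on any array. Of 10 nitric oxide genes besides Nos1, 6, 6 and 7 were well above background and 0 were 4-fold apart. Dynll1, a light chain that binds the neuronal synthase, had levels of 4.28, 5.34 and 5.66. Nos3, the endothelial synthase, had levels of -1.39, -2.55 and -2.99, and Nos2, the inducible one, was not well above background. In a further list of 6 GABA and glutamate genes none was 4-fold apart, and Slc32a1, the vesicular GABA transporter, had levels of -0.48, 0.03 and 0.24.

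Markers of nerve and other cells were read beside these genes, because the transcripts could come from gland cells, from local ganglia or from other cells. Of 22 markers of neurons and autonomic ganglia, 11, 9 and 10 were well above background in the parotid, submandibular-labelled and sublingual glands, and 9 on none. Their summed signal, relative to the 75th percentile, was 3.49, 3.04 and 4.58. Prph, peripherin, a filament of peripheral neurons, had levels of -0.01, -1.01 and -0.05, and Stmn2 had -2.19, -2.97 and -2.02. Uchl1, Snap25, Elavl3, Elavl4, Isl1 and Nefl were not well above background on any array. Between sublingual and submandibular-labelled, where Vip differed, Prph, Gap43 and Stmn2 were higher in the sublingual gland by 0.96, 0.97 and 0.95 on the log2 scale. These were the largest differences of the 10 markers compared. Others, such as Rab3a and Nefh, were lower in the sublingual gland, with differences of -0.19 and -0.09. The median of the 10 markers was 0.37 beside -0.05 over all genes. The part of nerve cells in the Vip difference was not tested.

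**Figure D5:**
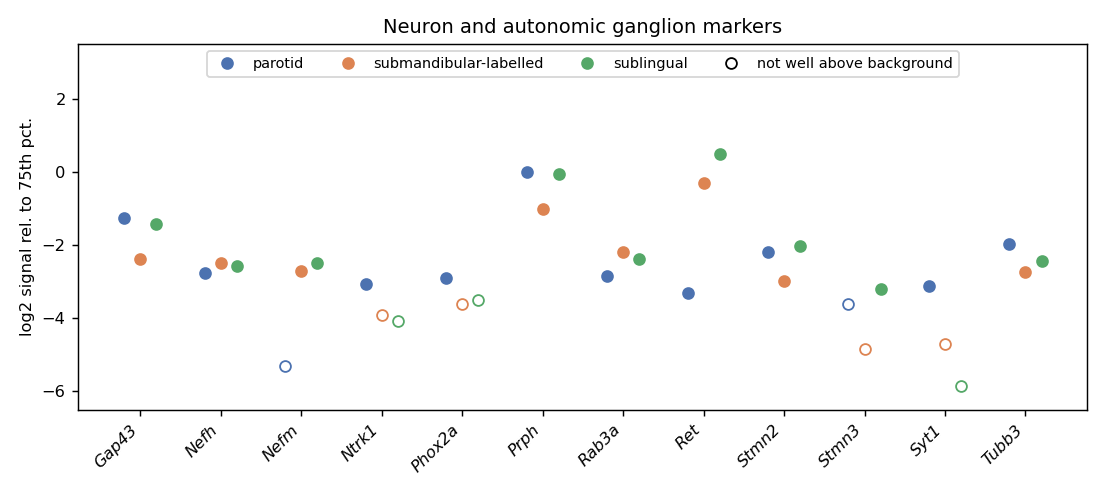
Log2 level (vertical axis) of 12 neuron and autonomic ganglion markers that were well above background on at least 1 array, in the parotid, submandibular-labelled and sublingual glands; open points are not well above background. Ret is higher in the submandibular-labelled and sublingual glands than in parotid, and Prph, Gap43 and Stmn2 are lowest in the submandibular-labelled gland.

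Where Ddc and Npy differed, between parotid and the other arrays, the same markers had medians of -0.65 (submandibular-labelled minus parotid, 12 genes) and -0.05 (sublingual minus parotid, 13 genes). Ret, the receptor of glial cell line-derived neurotrophic factor, was the only one of them that was 4-fold apart, 8.03-fold and 13.9-fold higher than in parotid. Of the other 2 Ret probes, 1 had levels of -3.81 (not well above background), -3.29 and -3.24 and 1 was not well above background in any gland. Markers of the list lay on both sides of parotid. Prph was 2.01-fold and 1.03-fold lower, and Rab3a, a synaptic vesicle protein, was 1.56-fold and 1.36-fold higher and Nefh, a neurofilament, 1.21-fold and 1.14-fold higher. Nefm, another neurofilament, was not well above background in parotid and was higher in both others, with a ratio of at least 1.64 and 1.91. The part of nerve cells in the Ddc and Npy differences was not tested. Of 7 neuroendocrine markers, 2 were well above background on each array, Ins1 and Ins2, and Syp, Insm1, Neurod1 and Gcg were among those on none. Ins1 had levels of -1.67, -1.85 and -1.43. Of 10 Schwann cell markers, 6, 6 and 5 were well above background. Sox10, which gland cells also express, was 2.82-fold and 4.29-fold lower than in parotid, and Ngfr was 3.08-fold and at least 4.09-fold lower. The medians of the 7 Schwann cell markers compared were -1.44 and -0.89. Prx went the other way: it was not well above background in parotid and was higher in both others, by at least 1.51-fold and 1.62-fold. Of 9 mast cell markers, 5, 4 and 4 were well above background, and Cma1, a chymase, was 5.39-fold lower in the submandibular-labelled gland and 2.41-fold lower in the sublingual gland. A second Cma1 probe had levels of -0.90, -2.67 and -2.08.

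The gland products were read to check the labels, and they leave a doubt about the array labelled submandibular. No granular duct product read here was raised 4-fold on it, and it was close to the sublingual array. Whether it held submandibular tissue is therefore not settled by these data. Every value given for it is that of the array so labelled. All 8 serous products compared were at least 4-fold lower, and all mucous products compared (8 of 8 and 7 of 7) at least 4-fold higher, in the submandibular-labelled and sublingual glands than in parotid. Their summed serous signal was 8067 in parotid, 171 in submandibular-labelled and 95.5 in sublingual, and the mucous signal 0.899, 1492 and 1475, relative to the 75th percentile. The serous products were Amy1, Amy2a3, Bpifa2, Cst5, Dnase1, Pip, Prb3 and Prp2, and the mucous products Agr2, Agr3, Bpifb2, Galnt5, Galnt7, Gcnt3, Muc19 and Tff3. Muc19, a gel-forming mucin, had levels of 9.80 in the submandibular-labelled gland and 9.71 in the sublingual gland. None of 12 granular duct products, which mark the rat submandibular gland, was 4-fold higher in the submandibular-labelled gland than on either other array, and Klk1, tissue kallikrein, had levels of 7.54, 7.72 and 7.37. Smr3a, on the same list, had a level of 9.78 in parotid, was not well above background in submandibular-labelled and had -2.58 in sublingual. Smr3b, also on it, was well above background in submandibular-labelled only, with a level of -2.66. It was higher there by at least 1.62-fold than in parotid and at least 2.11-fold than in sublingual. A second Smr3b probe was not well above background in any gland. Only 19 of 9782 genes (0.194%) were 4-fold apart between the submandibular-labelled and sublingual arrays, and Vip was one of them. Tff3 was higher in the submandibular-labelled gland (at least 25.3-fold) and Dnase1 in the sublingual gland (at least 24.0-fold). A second Tff3 probe was not well above background in any gland, with signals of 11.6, 5.46 and 5.26. Of 10 duct cell markers, 9 were well above background on each array, and Cldn4, a tight junction protein, was 3.68-fold and 4.02-fold higher than in parotid. Krt7, Krt19, Scnn1a, Scnn1b and Scnn1g were also higher on both arrays, though a second Scnn1a probe was well above background in parotid only. Others of the list were lower than in parotid: Ascl3 by 1.86-fold and 2.25-fold, Cftr by 1.88-fold and 3.01-fold and Foxi1 by 1.57-fold and 1.73-fold. The part of mucous, serous and duct cells in the Ddc and Npy differences was not tested. All 3 arrays were on 1 slide and had 1 scan date. Their 75th percentile signals were 186, 228 and 244, and the median SD of repeat spots was 0.08 on each array.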

How the data were processed

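RNA of 3 salivary glands was measured on 1-colour arrays, 1 per gland, and samples were grouped by the gland in their labels. Per the labels' protocols, 500 ng of total RNA was amplified and labelled with Cy3. The deposited spot intensity values came, per the file headers, from Agilent Feature Extraction 10.1.1.1 (design 014879, coordinates in rn4). The deposited flags of 0 or 1 mark spots well above background, saturated or outlying. A deposited value table gives a linear ratio for each spot, which equals the processed signal divided by 190, 236 and 250 on the parotid, submandibular-labelled and sublingual arrays; its medians were 0.152, 0.122 and 0.128, with no centring of genes, and it was an alternative only. No source used here says how it was made.

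Outlier-flagged spots (68, 79 and 73) were dropped, spots of a probe averaged as log2 and the array's 75th percentile subtracted. The number of arrays limits the precision, and no p-value was computed. A gene with several probes is given by the probe with the highest mean. Genes were named by transcript, symbol or a single synonym through RefSeq (19211 of 41012 probes), the 10 genes by the files' symbol alone. The members and lists were chosen with earlier results of these data known. Named are all 10 genes, list genes at least 4-fold apart, otherwise up to 3 of the highest level, and 3 nearest genes. Other list genes named were chosen after their values were seen, and a few list genes are not reported here. On simulated 8-fold changes among the real genes, differences were checked before use. Normexp used limma 3.58.1 in R 4.3.3, and the rest Python 3.11.15 with pandas 2.3.3 and numpy 2.4.6. Alternatives covered background correction, scaling, source, probe, detection, bound, outlier flags and threshold.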

Additional observations from a re-analysis of the deposited data

How the results depend on the processing

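The members' log2 differences were recomputed under 9 alternatives that keep the 4-fold threshold. Of 138 recomputed values, 136 kept their sign, the exceptions being Th against parotid under normexp (-0.13 and -0.19 in place of 0.29 and 0.27). Of 54 recomputed values that were at least 4-fold apart, none changed sign and 2 fell under 4-fold, both of Vip under normexp (1.25 and 1.72). Ranges over all settings were 6.69 to 8.44 and 7.28 to 8.98 for Ddc and 3.39 to 4.25 and 3.19 to 3.96 for Npy, submandibular-labelled and sublingual minus parotid. Normexp adds an offset to every signal and so draws folds of dim probes towards 1. Under it, 313, 334 and 9 of all genes were 4-fold apart (submandibular-labelled minus parotid, sublingual minus parotid, sublingual minus submandibular-labelled), in place of 584, 606 and 19, and 0 in place of 1 of the members in the last comparison. With the scanner's weaker flag (positive and significant) for detection, and likewise with no bound for dim probes, the counts were 983, 1060 and 85. With that flag, 9, 9 and 9 of the members counted as detected on the parotid, submandibular-labelled and sublingual arrays. At 2-fold in place of 4-fold the counts were 2291, 2552 and 149, with 5 members in place of 3 for sublingual minus parotid. Requiring every spot of a probe to be well above background was added after seeing the data; it left Th undetected on all arrays (4, 3 and 4 members detected) and changed no count of members 4-fold apart. Quantile normalization, centring on the median, the deposited table, the median over a gene's probes and kept outlier flags changed no count of members. With the median over probes, Calca had no value. Signal over background limits Gal, Tac1, Chat and Nos1 on all arrays and Vip and Dbh on 2 of 3. No paired analysis was possible because each gland was on 1 array and the labels carry no replicate numbers.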
